A study of Mus musculus with 48 samples.

Results

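The abundant actin and tubulin cytoskeleton genes measured here are the actins Actb and Actg1, the actin-turnover regulators Cfl1, Pfn1 and Pfn2, the α-tubulins Tuba1a and Tuba1b, and the β-tubulins Tubb3 and Tubb4a. They were chosen by name from a list of 10 genes, made with earlier results of these data known. Of the 10, 9 had a row in the tables of 15782 genes, while the β-tubulin Tubb2a was not analysed here. Expression was profiled in situ in 48 areas of illumination (AOIs) with a whole-transcriptome set of barcoded probes on fixed brain sections (GeoMx Digital Spatial Profiling), in which ultraviolet light releases the probe barcodes of a chosen area for sequencing. Each of 12 male C57BL/6 mice gave 1 AOI per region. The regions were the hippocampal CA1 field (CA), the dentate gyrus (DG), the frontal cortex (FCT) and the cortex (CT). The AOIs were whole areas that mix all cell types. Age was 10 weeks when the 35 days of flight or cage housing began, so the profiled tissue came from older animals.

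The mice formed 4 groups of 3. FLT-SAL and FLT-BuOE mice lived on the International Space Station for 35 days and reached the laboratory within 20 h of landing. GC-SAL and GC-BuOE mice were ground controls kept for the same number of days in flight-hardware cages, on a schedule begun 3 days later. SAL mice received saline. BuOE mice received MnTnBuOE-2-PyP5+, a manganese porphyrin that mimics superoxide dismutase, under the skin at 1 mg/kg in 0.2 mL, first 7 days before launch and then weekly. The sections of each group shared a slide, so slide and group cannot be told apart. Numbers 1 to 3 name the mice of a group in the order of the values given below.

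Actin filaments and microtubules are the polymers that shape neurons and glia. Actin filaments fill dendritic spines and growth cones, cofilin severs them, and profilins deliver actin monomers to their growing ends. Microtubules are built from α- and β-tubulin pairs and carry transport along axons and dendrites. Genes of both families are often used as reference genes because most cells express them strongly.

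Values are Q3-normalized, which means that the counts of an AOI were scaled so that the upper quartile of its genes was equal in all AOIs. Each gene had 1 probe, so levels can be compared between AOIs but not between genes. The deduplicated counts of an AOI ranged from 322629 to 1579380, and were highest in the FLT-SAL group (median 991426, against 628307.5 in GC-SAL, 639735 in GC-BuOE and 548888 in FLT-BuOE). Nuclei per AOI ranged from 140 to 640, with a median of 579.5 for FLT-SAL against 452 for GC-SAL. The region labels fitted their marker genes, with 6 of 6 CA1 pyramidal markers lower in DG than in CA, 5 of 7 granule-cell markers higher in DG, and 5 of 7 cortical neuron markers lower in the 2 hippocampal regions than in the 2 cortical ones. The 9 cytoskeleton genes lay above the negative-control probes in each AOI, from 1.96 times their level for Tuba1b in CA upwards. Over the 48 AOIs, the median rank from the highest gene down was 59.5 for Cfl1, 88.5 for Actg1 and 99.5 for Actb, and the lowest was 1754.5 for Pfn1.

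Differences are log2 fold changes on the log2(value + 1) scale with their standard error (SE). They were tested with limma across all genes, with Benjamini-Hochberg adjusted p-values. A gene was called when its adjusted p was below 0.05 and its change more than 1.5-fold in either direction, and genes that passed the adjusted p alone were counted too. In whole areas of tissue, fewer cells of a type and less RNA per cell cannot be told apart.

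Actb (ENSMUSG00000029580, chr5:142903115-142906754, minus strand, GRCm38) and Actg1 (ENSMUSG00000062825, chr11:120345690-120348542, minus strand) encode the cytoplasmic β- and γ-actins. Their coding sequences, each of 1128 bases, were 88.7% identical, with 128 differing bases and a longest shared run of 62 bases. The first 60 coding bases are shown because they hold the codons in which the encoded proteins chiefly differ, with capitals at the 9 bases that differ between the genes.
Actb: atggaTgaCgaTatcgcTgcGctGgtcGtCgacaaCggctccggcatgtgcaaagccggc
Actg1: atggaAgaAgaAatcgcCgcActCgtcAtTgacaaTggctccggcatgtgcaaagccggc
The probe sequences were not used here, and whether a probe also bound the paralog's transcript was not tested.

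Serum response factor (SRF) drives actin genes through an element named the CArG box. Of the 10 listed genes, 9 had a promoter in the RefSeq table (GRCm38.p6, from 250 bases before to 50 after the start of transcription), Actb being without one. The CArG box, searched on both strands, occurred in 535 of 32851 promoters (1.63%) and in 1 of these 9, that of Actg1. It lay 90 to 81 bases before the RefSeq start, which falls inside the gene span given above for Actg1 and not at its edge. The box is shown in capitals within chr11:120348551-120348610 (minus strand), as the match found among these genes.
Actg1 promoter: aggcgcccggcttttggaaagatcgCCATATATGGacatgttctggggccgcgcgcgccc
The match is a description of the letters and not a measured binding site. Of 15 genes listed for SRF, its cofactors and its targets, 0 passed the adjusted p by limma in FLT-SAL against GC-SAL averaged over regions, where 1.85% of all genes did, so that a list of this length could well hold none. Their median change was -0.03 (all genes 0.01).

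Actb was the cytoskeleton gene with the clearest difference between flight and ground in saline mice. In CA, the Q3 values of Actb were 203, 255 and 221 in the GC-SAL mice and 377, 377 and 354 in the FLT-SAL mice. The 3 flight mice lay close together and well above the highest ground mouse. The log2 difference was 0.71 (SE 0.14, adjusted p = 0.0142), a 1.63-fold rise, and this was the single call among the 36 gene-region pairs of the 9 genes. In CA, 0.139% of all genes were called. The call was lost when any of the 3 FLT-SAL mice, or GC-SAL mouse 1, was left out (adjusted p up to 0.166), while the log2 difference stayed between 0.58 and 0.80 in all 22 alternatives.

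In DG, Actb was at 181, 244 and 248 in GC-SAL and at 291, 321 and 368 in FLT-SAL, again without overlap. That difference of 0.55 (SE 0.13, adjusted p = 0.0351) passed the adjusted p but not the fold threshold, as 0.304% of all genes did by adjusted p alone in DG (0.266% by both thresholds). In FCT the values were 217, 179 and 202 against 231, 255 and 286, a log2 difference of 0.36 (SE 0.15, adjusted p = 0.748). In CT they were 199, 237 and 192 against 203, 264 and 315, and here the groups overlapped (0.30, SE 0.16, adjusted p = 0.98).

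Actg1 followed a like order at a smaller size. In CA it was at 185, 221 and 225 in GC-SAL and at 315, 327 and 299 in FLT-SAL, with no overlap (0.58, SE 0.14, adjusted p = 0.0676). In DG it was at 190, 249 and 179 against 276, 270 and 297, also without overlap (0.46, SE 0.14, adjusted p = 0.228). In the 2 cortical regions the groups overlapped, and the log2 differences were 0.25 in FCT and 0.29 in CT.

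**Figure D1:**
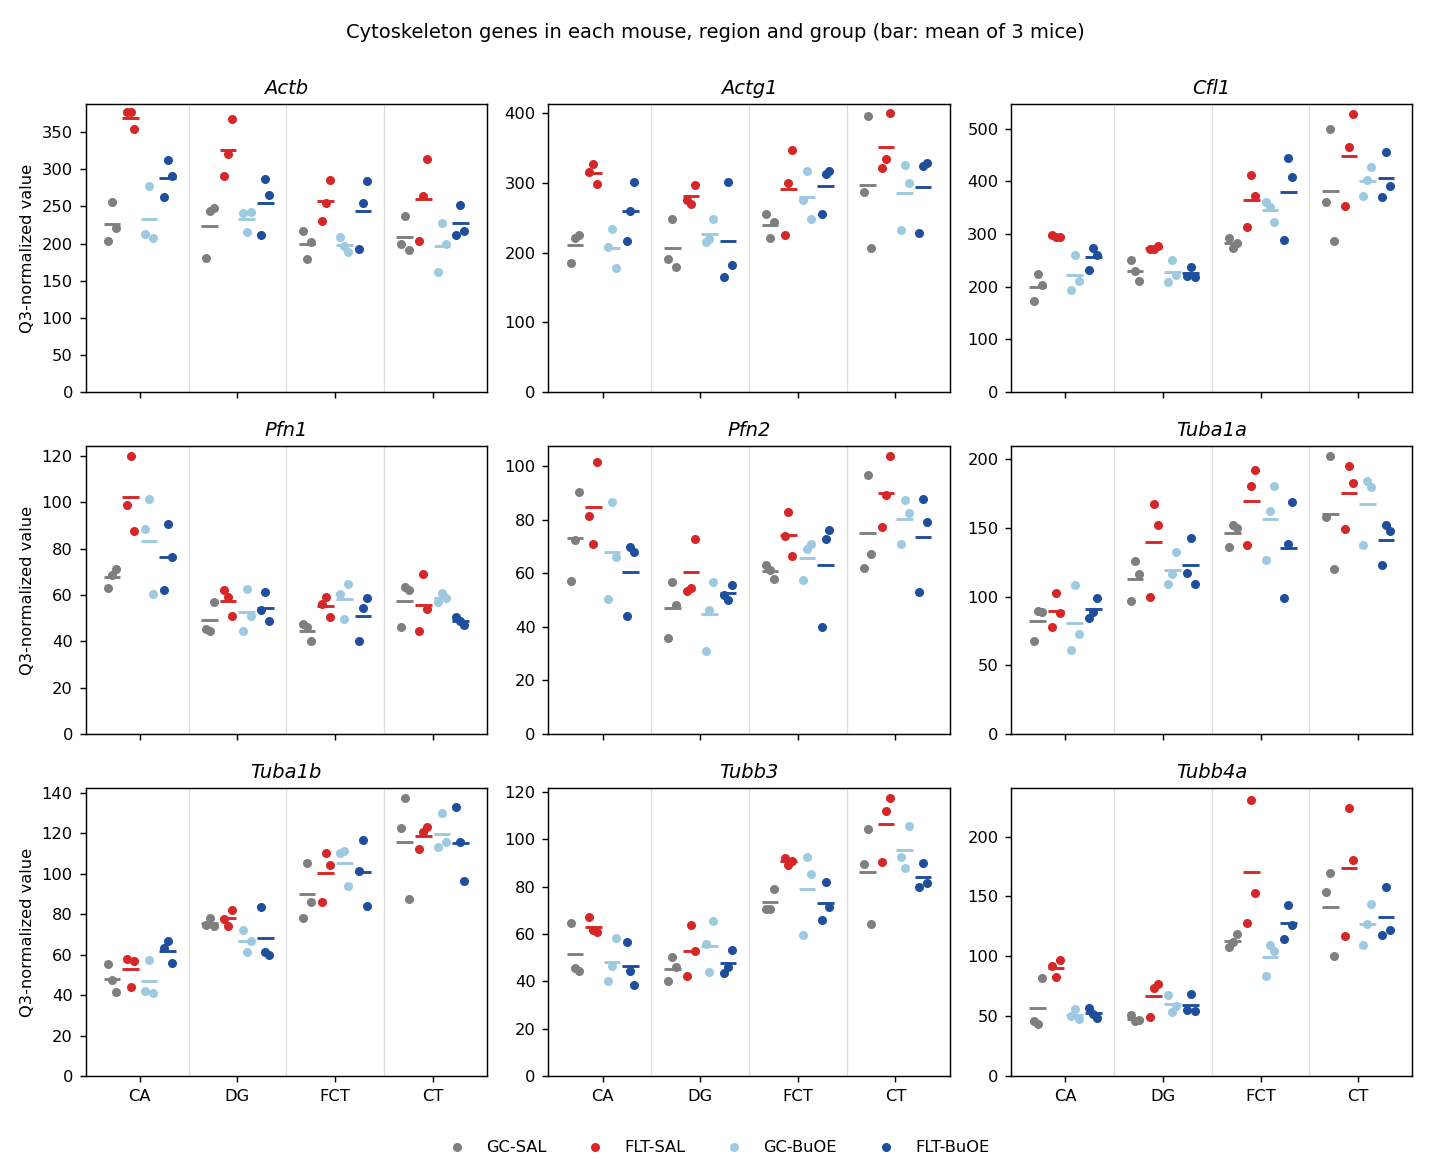
Q3-normalized value (linear axis from 0) of each of the 9 cytoskeleton genes in CA, DG, FCT and CT, with 1 point per mouse and a bar at the mean of the 3 mice of a group. For Actb in CA the FLT-SAL points (354 to 377) lie above all GC-SAL points (203 to 255), while the 4 groups of Tuba1b overlap in most regions.

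Cfl1 (ENSMUSG00000056201, chr19:5490455-5495201, plus strand) encodes cofilin, which severs and depolymerizes actin filaments. In CA its values were 172, 225 and 203 in GC-SAL and 298, 295 and 294 in FLT-SAL (log2 difference 0.57, SE 0.14, adjusted p = 0.0741). The flight mice were nearly equal to each other and all above the ground mice. In DG the values were 251, 229 and 210 against 271, 271 and 277 (0.25, SE 0.12, adjusted p = 0.647), and in FCT 293, 274 and 284 against 313, 411 and 372 (0.36, SE 0.15, adjusted p = 0.786). The groups were apart in both regions, by a narrow margin in each. In CT they overlapped, at 361, 499 and 287 against 352, 465 and 528.

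Pfn1 (ENSMUSG00000018293, chr11:70651850-70654644, minus strand) and Pfn2 (ENSMUSG00000027805, chr3:57841895-57848079, minus strand) encode profilins, Pfn2 being the form enriched in neurons, and their coding sequences were 63.3% identical. Pfn1 in CA was at 63.1, 68.6 and 71.2 in GC-SAL and at 98.9, 120 and 87.7 in FLT-SAL (0.58, SE 0.18, adjusted p = 0.264). The groups did not overlap, but the flight mice were spread more widely than for the actins. In CT Pfn1 gave the lone difference below 0 among the 36 pairs (-0.05), with values of 46.1, 63.5 and 62.4 against 44.4, 69.0 and 53.9. Pfn2 ranged from 31.1 to 104 over the 48 AOIs, its flight differences lay between 0.21 and 0.37, and its FLT-SAL and GC-SAL groups were apart in FCT alone.

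Tuba1a (ENSMUSG00000072235, chr15:98949837-98953703, minus strand) and Tuba1b (ENSMUSG00000023004, chr15:98931425-98934565, minus strand) are neighbouring α-tubulin genes. Their coding sequences of 1356 bases differed at 23 bases (98.3% identical, longest shared run 281 bases). Coding bases 640 to 699 are shown as a stretch that tells them apart, with capitals at its 10 differing bases.
Tuba1a: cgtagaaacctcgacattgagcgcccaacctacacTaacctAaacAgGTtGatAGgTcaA
Tuba1b: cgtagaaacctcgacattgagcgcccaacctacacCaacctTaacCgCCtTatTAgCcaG
With so few differences in the coding part, values of this pair are the least certain to be separate, and the part of cross-hybridization was not tested.

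Averaged over the 4 regions, the α-tubulins had the smallest flight differences of the 9 genes (0.19 and 0.10). Tuba1a in CA was at 67.7, 89.6 and 88.9 in GC-SAL and at 77.7, 103 and 87.7 in FLT-SAL, and Tuba1b was at 55.4, 47.6 and 41.5 against 57.7, 44.1 and 57.0. The groups overlapped for both genes in each of the 4 regions. The log2 differences ranged from 0.12 to 0.28 for Tuba1a and from 0.05 to 0.16 for Tuba1b, with adjusted p from 0.737 upwards.

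Tubb3 (ENSMUSG00000062380, chr8:123411424-123422015, plus strand) encodes the neuron-specific class III β-tubulin, and Tubb4a (ENSMUSG00000062591, chr17:57080066-57087782, minus strand) a brain β-tubulin that is abundant in neurons and in myelinating oligodendrocytes. Their coding sequences were 82.9% identical. Tubb4a in CA was at 46.2, 43.8 and 81.5 in GC-SAL and at 91.8, 83.1 and 97.0 in FLT-SAL. GC-SAL mouse 3 stood close to the flight mice and the other two ground mice far below. The difference was 0.71 (SE 0.20, adjusted p = 0.136), and without GC-SAL mouse 3 it was 0.99 (adjusted p = 0.0232) and was called. In FCT Tubb4a was at 107, 112 and 119 against 128, 231 and 153 (0.55, SE 0.17, adjusted p = 0.399), and in DG at 51.1, 45.6 and 47.0 against 49.7, 73.3 and 77.2 (0.45, SE 0.17, adjusted p = 0.445). In FCT the groups were apart, and in DG FLT-SAL mouse 1 fell among the ground mice. Tubb3 was most even in FCT, at 70.6, 70.6 and 78.9 in GC-SAL against 92.1, 89.3 and 90.8 in FLT-SAL, without overlap (0.31, SE 0.16, adjusted p = 0.91).

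Counted together, 35 of the 36 gene-region differences between FLT-SAL and GC-SAL were above 0, as 48.7% to 55.8% of all genes were in a region. The list was made with earlier results of these data known, so such counts are a description and not a test of the set. Of the 36, 12 had an unadjusted p below 0.05, which 6.73% (CA), 7.41% (DG), 5.66% (FCT) and 5.27% (CT) of all genes had. In 14 all flight mice were above all ground mice. These 14 were 6 of 9 genes in FCT (7.41% of all genes), 5 in CA (7.55%) and 3 in DG (7.39%), with 0 in CT (5.14%). No cytoskeleton gene was called in DG, FCT (0.0507% of all genes, by both thresholds and by adjusted p alone) or CT (0.0887%, by both thresholds and by adjusted p alone). By adjusted p alone, Actb in CA (0.139% of all genes) and Actb in DG passed. The median log2 difference of the 9 genes was 0.57 in CA, against 0.02 over all genes. It was 0.28 in DG (all genes -0.01), 0.30 in FCT (0.03) and 0.27 for CT (0.01). A test of whether the flight difference varied between the 4 regions called none of the 9 genes (limma F test, each adjusted p 0.9995, and the unadjusted p was 0.186 for Actb), as against 0.0444% of all genes. The larger values in CA are therefore not shown to differ from those in the other regions. In CT the differences of 8 of the 9 genes were lower without GC-SAL mouse 3, whose values were the lowest of its group for most of them, and Actg1 went from 0.29 to 0.05.

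Averaged over the 4 regions, with the mouse as a random block, 4 of 9 genes were higher in FLT-SAL by adjusted p alone (1.85% of all genes). They were Actb (0.48, SE 0.08, adjusted p = 8.36e-06), Cfl1 (0.36, SE 0.07, adjusted p = 0.00139), Actg1 (0.40, SE 0.08, adjusted p = 0.00161) and Tubb4a (0.50, SE 0.10, adjusted p = 4.19e-04). None reached the fold threshold as well, which 0.095% of all genes did. The geometric mean of Actb over the regions was 200, 227 and 215 in the GC-SAL mice and 268, 300 and 329 in the FLT-SAL mice. The 3 flight mice lay above the 3 ground mice for 7 of the 9 genes (8.59% of all genes), the exceptions being Tuba1a and Tuba1b. Tubb3, Pfn2 and Pfn1 had averaged differences of 0.28, 0.28 and 0.27 with adjusted p of 0.105, 0.194 and 0.162, and Tuba1a and Tuba1b of 0.19 and 0.10 (adjusted p = 0.452 and 0.818).

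That average uses 4 AOIs of each mouse. Their correlation within a mouse was set at 1 consensus value over all genes (0.0255) and was not estimated for these 9 genes alone. If the AOIs of a mouse are more alike for these genes, the adjusted p-values of the average are too low. When the 4 regions were first reduced to 1 mean per mouse, 2 of the 9 genes kept an adjusted p below 0.05 (0.843% of all genes), Actb and Tubb4a, each at 0.00753. Actg1 was then at 0.0521 and Cfl1 at 0.0785.

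**Figure D2:**
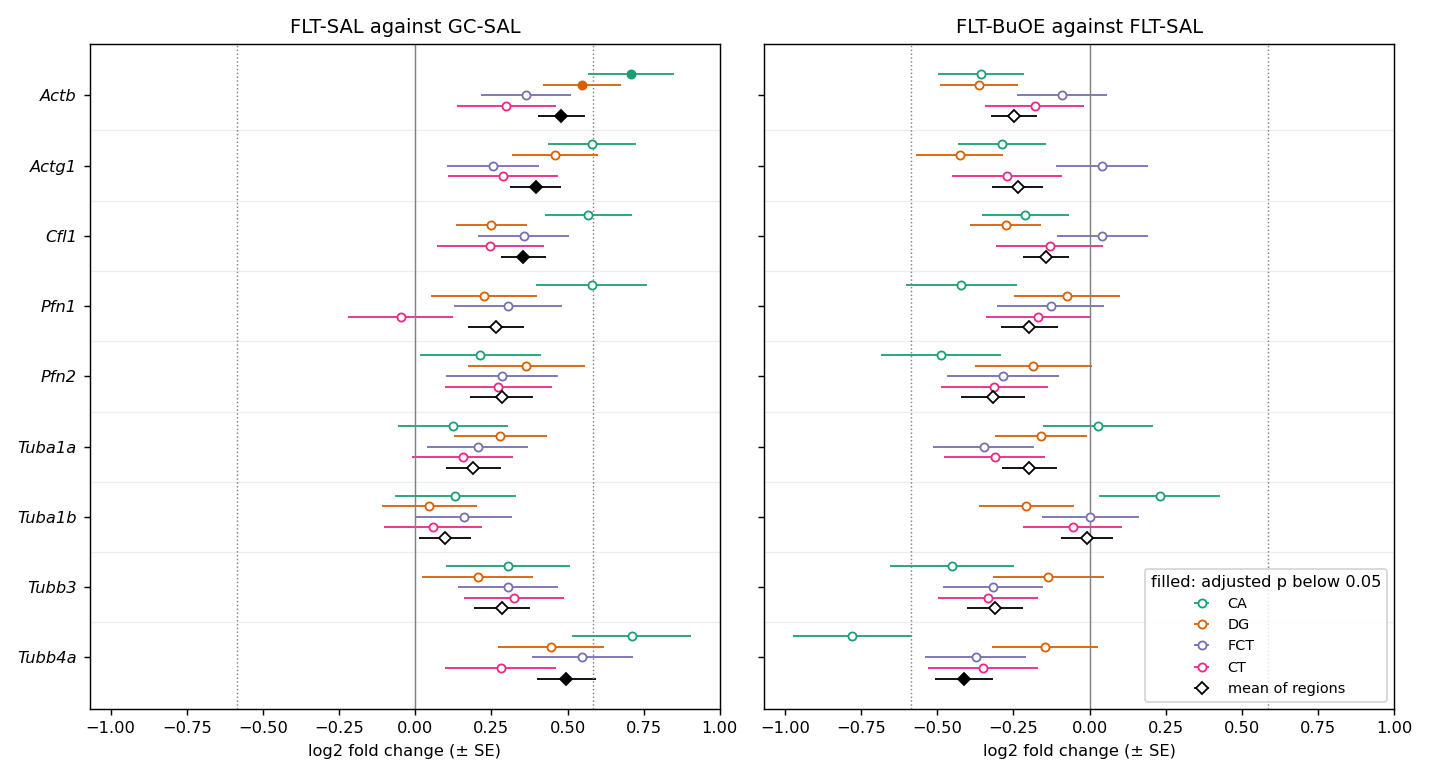
Log2 fold change with its SE (horizontal bars) of the 9 genes in each region and averaged over regions, for FLT-SAL against GC-SAL and FLT-BuOE against FLT-SAL, with dotted lines at the fold threshold (1.5-fold) and filled points where the adjusted p is below 0.05. In the first panel 35 of 36 regional points lie right of 0, and in the second 31 of 36 lie left of it.

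Some other genes with high values and some cell type markers also differed between FLT-SAL and GC-SAL. The top 1% of genes by mean level held 155 genes after the cytoskeleton genes in it, Cfl1, Actg1 and Actb, were left out. Of these 155, 41 were higher and 2 lower in FLT-SAL by adjusted p alone in the averaged comparison (1.48% of all genes higher). The median of the 155 was 0.07. The remaining cytoskeleton genes had lower probe values, at median ranks from 373.5 (Tuba1a) down to 1754.5 (Pfn1). Of the neuronal markers, 6 of 11 were higher by adjusted p alone (Snap25, Gad1, Eno2, Thy1, Syt1 and Syn1, list median 0.28), and so were 4 of 9 oligodendrocyte markers (Mobp, Mbp, Cnp and Cldn11, list median 0.34), 1 of 8 astrocyte markers (Aldoc), 0 of 7 microglia markers and 0 of 9 markers of vessels and meninges. The summed neuronal markers in CA ranged from 2674 to 3105 in GC-SAL and from 3557 to 4168 in FLT-SAL, and in DG from 2773 to 3278 and from 3910 to 4187. Nrgn and Camk2a had the highest values of the 11 and weigh most in this sum, and neither was among the 6 that passed. The summed oligodendrocyte markers ranged from 763 to 824 in GC-SAL and from 1364 to 1885 in FLT-SAL in CT, from 1063 to 1244 and from 1277 to 1964 in FCT, and from 545 to 588 and from 512 to 561 in DG. In CA they ranged from 526 to 610 in GC-SAL and from 598 to 772 in FLT-SAL. Neuronal sums were thus apart in CA and DG, and oligodendrocyte sums in FCT and CT, while the latter overlapped in CA and DG. The sums of CA1 pyramidal markers in CA (medians 442 and 597), of granule-cell markers in DG (345 to 398 against 452 to 498) and of astrocyte markers in DG (419 to 457 against 495 to 559) were also higher in FLT-SAL without overlap. Lower without overlap were those of microglia markers in DG (196 to 224 against 191 to 195) and of CA1 pyramidal markers in CT (280 to 311 against 260 to 279). All 11 neuronal markers and at least 8 of 9 oligodendrocyte markers were above 1.5 times the negative control in each region, and so were 3 of 9 vessel markers in CA. The part of these cell types, and of the higher count depth of the FLT-SAL AOIs, in the cytoskeleton differences was not tested.

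**Figure D3:**
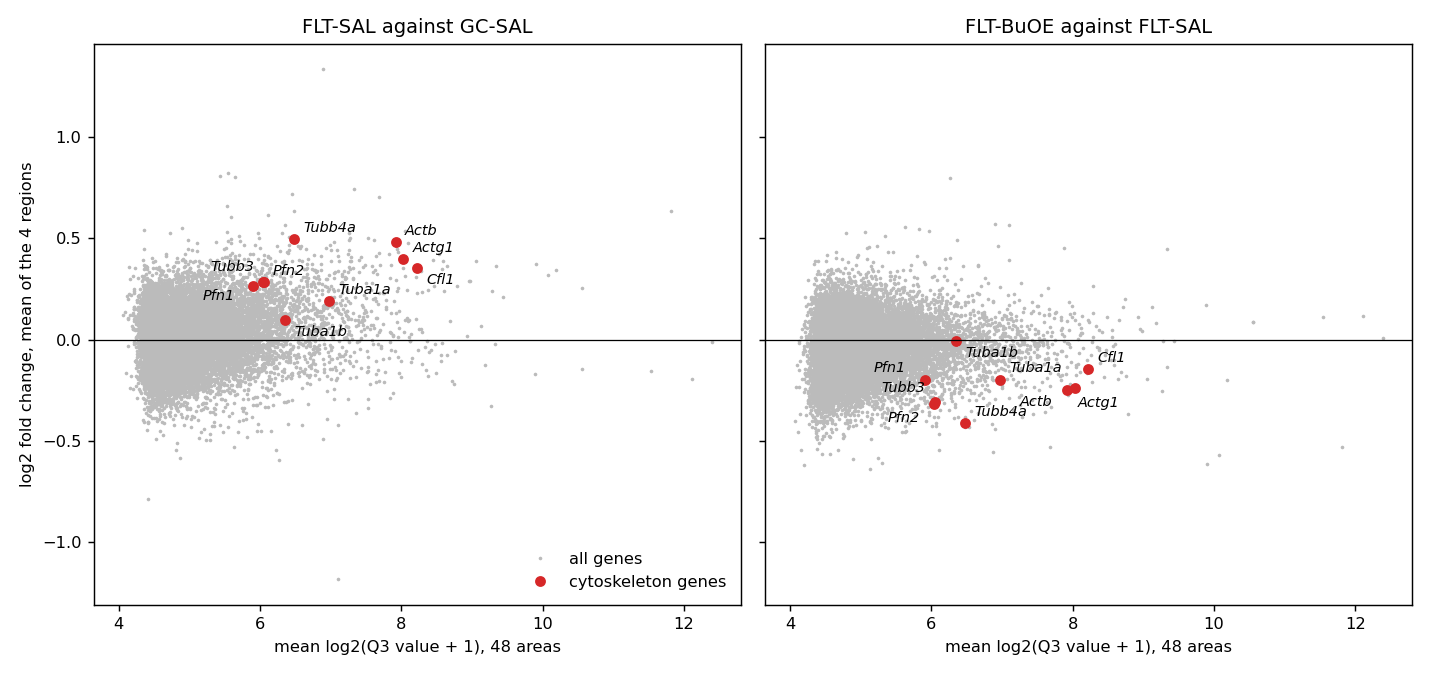
Log2 fold change averaged over the 4 regions against the mean log2(Q3 value + 1) over 48 AOIs, with 1 grey point per gene (15782) and the 9 cytoskeleton genes in red, for FLT-SAL against GC-SAL and FLT-BuOE against FLT-SAL. The red points lie from 0.10 to 0.50 in the first panel and from -0.41 to -0.01 in the second.

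To see how the drug bore on these genes in flight, FLT-BuOE was set against FLT-SAL. The FLT-SAL mice also entered the comparison above, so the 2 sets of differences are not independent. None of the 36 gene-region pairs was called by limma, and none by edgeR or DESeq2 on the counts, with 11 at an unadjusted p below 0.05 (4.96% to 7.65% of all genes in a region). Of all genes, 0.00634% were called in CA, none (0%) in DG, 0.0317% in FCT and 0.0697% for CT. The difference was below 0 in 31 of the 36 pairs and above 0 in 5, while 38.7% to 47% of all genes lay above 0 in a region. All BuOE mice were below all saline mice in 9 pairs, 5 of 9 genes in CA (7.45% of all genes), 2 in DG (6.75%), 1 in FCT (8.82%) and 1 in CT (5.99%).

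The largest of these differences was that of Tubb4a in CA, which was at 56.6, 51.9 and 48.7 in FLT-BuOE against 91.8, 83.1 and 97.0 in FLT-SAL. The groups were far apart (-0.78, SE 0.20), but the adjusted p over all genes was 0.404. Actb in CA was at 262, 313 and 291 in FLT-BuOE, between the GC-SAL and the FLT-SAL mice without overlap with either (-0.36, SE 0.14, adjusted p = 0.931). Actb in DG was at 212, 286 and 266, also just below its FLT-SAL mice (-0.36, SE 0.13, adjusted p = 0.575). Cfl1 in DG was at 220, 238 and 219 in FLT-BuOE against 271, 271 and 277, with no overlap (-0.28, SE 0.12, adjusted p = 0.781). Actg1 in DG was at 165, 301 and 182, where mouse 2 was above and the other two below each FLT-SAL mouse (-0.43, SE 0.14, adjusted p = 0.507), and without that mouse the pair was called (-0.69, adjusted p = 0.0183).

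Averaged over regions, Tubb4a was lower in FLT-BuOE by -0.41 (SE 0.10, adjusted p = 0.0187), the single gene of the 9 below an adjusted p of 0.05 (0.437% of all genes), and none passed both thresholds (0.0317%). The averaged values of Tubb4a were 80.5, 94.9 and 80.1 in FLT-BuOE against 91.0, 133 and 120 in FLT-SAL, and FLT-SAL mouse 1 lay below FLT-BuOE mouse 2. The adjusted p of Tubb4a was below 0.05 in 14 of 19 alternatives. It was not when mouse 1 or 3 of FLT-BuOE, or mouse 2 or 3 of FLT-SAL, was left out. Nor was it with 1 mean of the Q3 values per mouse (adjusted p = 0.0887), where 0 of the 9 genes passed (0.12% of all genes). The other averaged differences were -0.32 for Pfn2, -0.31 for Tubb3, -0.25 for Actb, -0.24 for Actg1, -0.20 for Pfn1 and Tuba1a, -0.14 for Cfl1 and -0.01 for Tuba1b, with adjusted p from 0.127 upwards. All BuOE mice were below all saline mice for Pfn2 and Tubb3, 2 of 9 genes (9.76% of all genes). Of all genes, 5884 of 15782 lay above 0 in this comparison, with a median of -0.04. Among marker lists, 2 of 9 oligodendrocyte markers (Mobp and Mbp) and 1 of 11 neuronal markers (Gad1) were lower in FLT-BuOE by adjusted p alone, and their part was not tested.

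**Figure D4:**
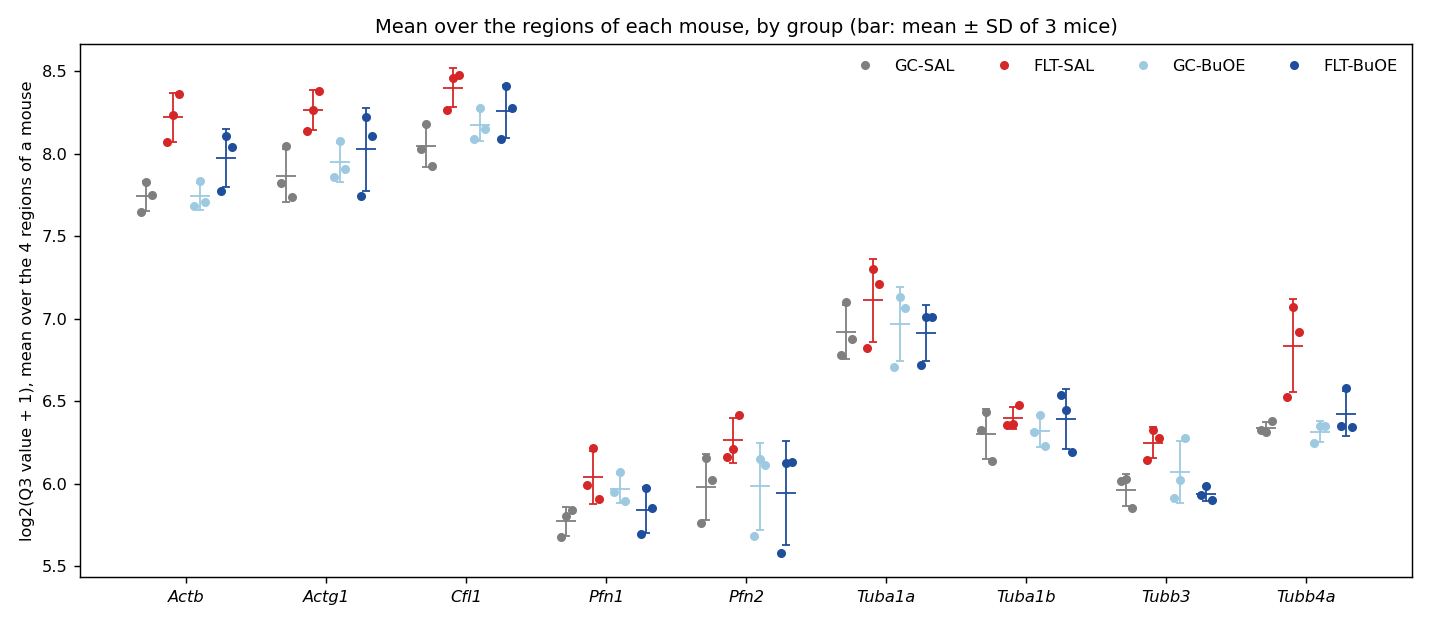
Mean of log2(Q3 value + 1) over the 4 regions of each mouse (points) with the mean and SD of the 3 mice of each group, for the 9 genes. For Actb the FLT-SAL mice lie above the mice of both ground groups, and the FLT-BuOE mice lie from within the ground range up to the lower FLT-SAL mice.

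On the ground, the averaged differences between BuOE and saline mice were small. In GC-BuOE against GC-SAL, which share the GC-SAL mice with the flight comparison, none of the 9 averaged genes passed by limma, as 0% of all genes did, with 1 at an unadjusted p below 0.05 (Pfn1, 0.20, SE 0.09). They ranged from -0.02 to 0.20, and Actb lay at 204, 227 and 208 in GC-BuOE, almost the values of GC-SAL. In FLT-BuOE against GC-BuOE, none passed (0.672% of all genes), with 1 at an unadjusted p below 0.05. That gene was Actb (0.23, SE 0.08, adjusted p = 0.156), whose averaged values in FLT-BuOE were 218, 275 and 263, with mouse 1 inside the range of GC-BuOE. In CA, Tubb4a in FLT-BuOE was level with GC-BuOE, at 50.6, 56.0 and 47.6 (0.03, SE 0.20). Among the 36 pairs of each of these 2 comparisons, 0 were called by limma, edgeR or DESeq2, with 1 and 4 at an unadjusted p below 0.05. Of all genes, 3.78% to 5.63% had such a p in a region in GC-BuOE against GC-SAL and 6.65% to 8.24% in FLT-BuOE against GC-BuOE. Limma called 0.00634% of all genes in FCT and 0% in the other regions in the former, and in the latter 0.0444% (CA), 0.108% (DG), 0.019% (FCT) and 0.0127% (CT).

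Whether the flight difference depended on BuOE was tested as an interaction. It was negative for all 9 averaged genes, from -0.42 (Tubb3, SE 0.13) to -0.03 (Tuba1b), and 7 had an unadjusted p below 0.05. Of all genes, 42.1% lay above 0 and 7.04% had such a p. The lowest adjusted p was 0.289, so 0 of 9 passed (0.152% of all genes). By edgeR and DESeq2, 0 of the 36 pairs passed. The smaller differences under BuOE are therefore not shown to differ from those under saline.

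Cfl1 and the tubulins were lower in the hippocampus than in the cortex. In the 2 hippocampal regions against the 2 cortical ones, within the mouse, 5 of 9 were called and all 5 were lower in the hippocampus (3.18% of all genes called). Tubb4a was lower by -1.14 (SE 0.06), Tuba1b by -0.80 (SE 0.06), Tubb3 by -0.73 (SE 0.06), Cfl1 by -0.63 (SE 0.05) and Tuba1a by -0.60 (SE 0.05), each in 12 of 12 mice and with an adjusted p no higher than 1.49e-18. Tuba1a lay just past the fold threshold, and its call was lost with quantile normalization (-0.46), with a pseudocount of 5 (-0.58) and without mouse 1 or 2 of GC-SAL or mouse 3 of GC-BuOE (-0.58 to -0.57). That of Cfl1 was lost with quantile normalization (-0.51). The other 4 genes passed the adjusted p alone, so that 9 of 9 did so (22.8% of all genes). Actg1 (-0.29, lower in 11 of 12 mice) and Pfn2 (-0.27) were lower in the hippocampus, while Actb (0.25) and Pfn1 (0.29) were higher there in 11 of 12 mice. The 2 actins thus had opposite signs.

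The levels show the size of this pattern. Tubb4a ranged from 43.8 to 97.0 in CA (median 54.0), from 45.6 to 77.2 in DG (54.8), from 83.3 to 231 in FCT (117) and from 101 to 224 in CT (136). Cfl1 had hippocampal medians of 246 (CA) and 233 (DG) and cortical ones of 337 (FCT) and 396 (CT). Actb had the reverse order, with medians of 270 for CA, 246 for DG, 213 for FCT and 214 for CT, though its ranges overlapped in all regions.

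DG and CA differed in the profilins and the α-tubulins. Pfn1 was lower in DG in 12 of 12 mice (-0.59, SE 0.09, adjusted p = 2.29e-08), the single call (4.1% of all genes called), with a median of 52.3 in DG and 82.2 in CA. It lay just past the fold threshold, and the call was lost with a pseudocount of 5 (-0.56) and without GC-BuOE mouse 1, FLT-SAL mouse 2 or FLT-SAL mouse 3 (-0.58 to -0.56). By adjusted p alone 4 genes differed (23.7% of all genes), the others being Pfn2 (-0.47, lower in 11 of 12 mice), Tuba1a (0.52, higher in 12 of 12) and Tuba1b (0.46, higher in 11 of 12). This comparison depended on the scaling. The upper quartile stood at a median of 3.57 times the negative control in DG and 2.12 times in CA. When the negative control was subtracted first, which moved the median of all genes from -0.07 to 0.29, Actb (-0.49), Actg1 (-0.48) and Cfl1 (-0.39) were lower in DG too, so that 7 of 9 passed the adjusted p, and Pfn2 was called beside Pfn1. Quantile normalization also gave 7 of 9. Between FCT and CT no gene was called (0.101% of all genes), and Cfl1 alone passed the adjusted p (-0.25, SE 0.06, adjusted p = 0.0221, lower in FCT in 11 of 12 mice, 0.982% of all genes).

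**Figure D5:**
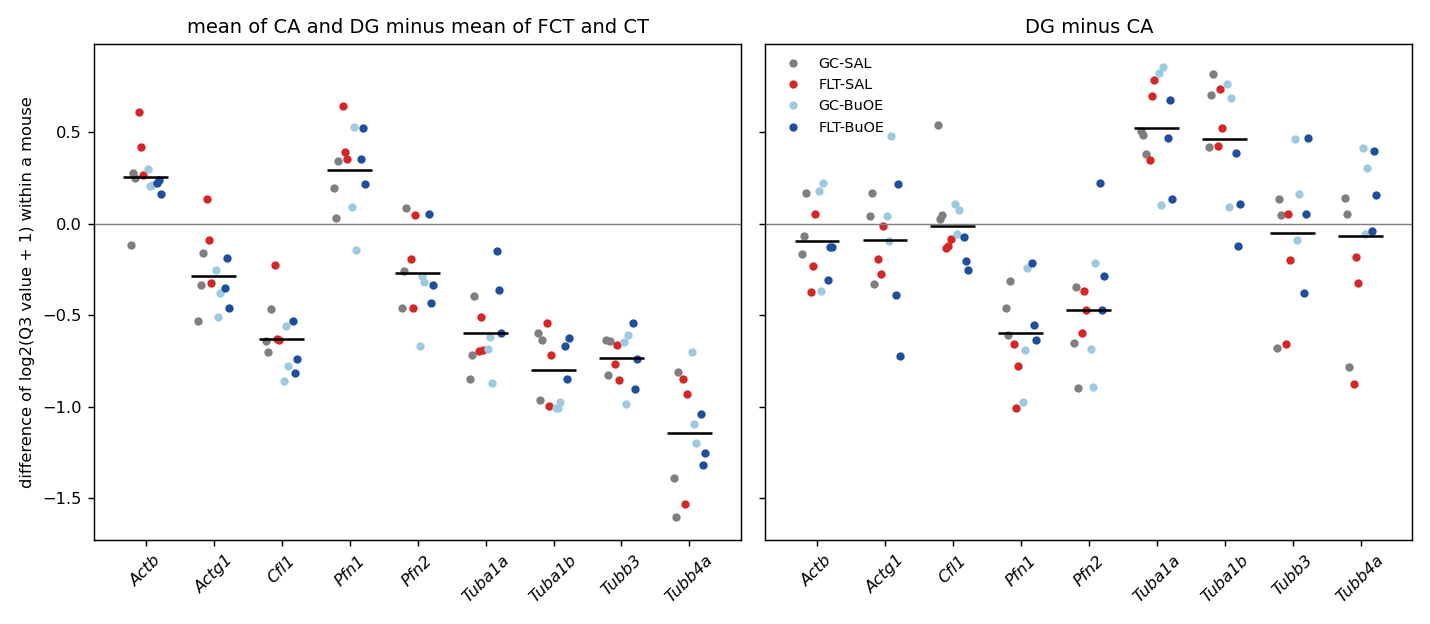
Difference of log2(Q3 value + 1) within a mouse for the 9 genes, with 1 point per mouse coloured by group and a bar at the mean of 12 mice, for the mean of CA and DG minus the mean of FCT and CT, and for DG minus CA. In the first panel the 12 mice lie below 0 for Tubb4a, Tuba1b, Tubb3, Cfl1 and Tuba1a, and in the second the 12 mice lie below 0 for Pfn1 and above 0 for Tuba1a.

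The wider cytoskeleton was read from 177 further genes in lists of actins, tubulins, actin and microtubule regulators, motors and intermediate filaments. In FLT-SAL against GC-SAL averaged over regions, 0 of the 177 were called, 5 were higher by adjusted p alone (1.48% of all genes) and 0 lower, a share near that of all genes. Of the 177, 128 lay above 0 (72.3%, against 53.4% of all genes), with a median of 0.07. The 5 were Map1a (0.42), which bundles axonal and dendritic microtubules, Actr3b (0.39), a subunit of the actin-nucleating Arp complex, Map7 (0.37), which recruits kinesin to microtubules, Tmsb4x (0.37), which sequesters actin monomers, and Kif1b (0.35), a kinesin motor. Tmsb4x was called in CA (0.61, SE 0.14, adjusted p = 0.0404), with group means of 738 and 485. Among paralogs, the averaged difference was -0.09 for Acta2, 0.10 for Tuba4a, 0.11 for Tubb2b, 0.13 for Tubb4b and 0.01 for Tubb5, with no adjusted p below 0.05. Of the 7 other tubulins, 0 passed, though all 7 lay above 0.

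Between hippocampus and cortex, 19 of the 177 genes were called lower in the hippocampus and 3 higher. Of all 15782 genes, 363 were called lower and 139 higher (3.18% called). The lower genes included 6 of 31 microtubule-associated genes (with Stmn1, Stmn2 and Stmn3, whose products bind tubulin dimers), 6 of 21 motor genes (with Kif5a, Kif1a and Dynll2), 2 of 5 neuronal intermediate filament genes (Nefm and Ina) and Tuba4a (-0.61). Of the actin regulators Tmsb10, Limk1, Cobl and Fscn1 were lower, and Arpc5, Arpc2 and Cttnbp2 higher. Between DG and CA, 5 were higher in DG (Map1b, Marcksl1, Dbn1, Epb41l1 and Tmod1) and 5 lower (among them Tmsb10, Map4, Arpc5 and Tmsb4x), a share near that of all genes (4.1% called, 1.69% lower). Oligodendrocyte markers were also lower in the hippocampus (5 of 9 called, list median -0.66) and so were 3 of 11 neuronal markers, and their part in the tubulin pattern was not tested.

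Across the 48 AOIs, the genes whose values ran most like each cytoskeleton gene are given as a description, since AOIs of a mouse or slide share their tissue and region sets much of the likeness. Over 3946 genes with a mean level at or above the upper quartile, Pearson's r was highest with Tpi1 for Cfl1 (0.935), with Sparcl1 for Tuba1b (0.914), with Vsnl1 for Tubb4a (0.911), with Syngr1 for Tubb3 (0.888), with Ubb for Actg1 (0.878), with Eef1a2 for Tuba1a (0.874), with Tmsb4x for Pfn1 (0.780), with Ptms for Actb (0.746) and with Pld3 for Pfn2 (0.739). Tubb4a was among the 3 nearest genes of Tubb3 (0.885), the one case in which another of the 9 was so near. Actb was not among the 3 nearest genes of Actg1.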

How the data were processed

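Each AOI has a file of deduplicated probe counts, deposited by the authors after trimming, stitching, alignment and deduplication in the GeoMx NGS Pipeline, with 20175 probes. Each region has a table of Q3-normalized signal, made by the authors from these counts over 15782 genes and 12 AOIs. The deposited tables of the authors' own group comparisons (fold changes and p-values) were not used. Of the Q3 values, 99.98% were whole multiples of 1 count within 0.02, and 15777 genes matched 1 probe, so the deposited counts of those genes could be tested too.

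The members and gene lists were chosen with earlier results of these data known. The text names each member, up to 3 called genes per list and comparison, paralogs, and the genes most like each member. Genes that passed the adjusted p alone were named after their values were seen.

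Values were analysed as log2(Q3 + 1) with limma 3.58.1 (R 4.3.3, empirical Bayes with trend), with Benjamini-Hochberg adjustment over 15782 genes. Groups were compared within a region (3 mice against 3, with all 4 groups in the fit), averaged over regions (mouse as a random block) and between regions (mouse as a fixed block). An exact permutation test of 3 against 3 cannot go below 0.1 and was not used. Over all genes, same-numbered mice of different groups deviated with a median correlation of 0.0205 (1 of 72 pairs over 0.1). Regions of the same mouse gave a like value (0.0237, 2 of 72), so this correlation cannot decide whether numbers pair mice. In the means over regions, mouse 1 was the lowest of each group for Actb, Pfn2 and Tuba1a. For Tuba1b it was the highest in FLT-BuOE (92.0, 86.2 and 72.1). Numbers were not used as pairs in the main fits, and a replicate block was an alternative. Alternatives were pseudocounts of 0.5 and 5, a filter at 1.5 times the negative control, quantile normalization, background subtraction, edgeR 4.0.16 and DESeq2 1.42.0 on the counts, the replicate block, the groups of a contrast alone, 1 fit over the 4 regions, and leaving out each mouse. Between regions, a fit without the mouse as a block was run too. The fits on 1 mean per mouse were added after the data were seen. The fits were also run on simulated counts with known changes, drawn independently for each AOI. The planted changes were larger than the flight differences reported above. Without a simulated mouse or slide effect, that run cannot check the correlation within a mouse. The spread between the 3 mice of a group sets the precision. Coding sequences came from GENCODE M21 and promoters from RefSeq.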

Additional observations from a re-analysis of the deposited data

How the results depend on the processing

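The flight difference of Actb averaged over regions kept its direction and an adjusted p below 0.05 in 19 of 19 alternatives (0.38 to 0.56), Tubb4a in 18, Cfl1 in 17 and Actg1 in 16. In FLT-SAL against GC-SAL, 1 gene-region pair was called, and the count was 0 with quantile normalization (Actb in CA at 0.58, adjusted p = 0.0391), 3 with background subtraction (Actb, Actg1 and Cfl1 in CA) and 0 to 3 when 1 mouse was left out. At adjusted p alone 2 pairs passed, against 4 with DESeq2, 4 with the groups of the contrast alone, 4 with the replicate block, 1 with quantile normalization and 0 to 4 without 1 mouse. In FLT-BuOE against FLT-SAL, 0 to 1 pairs were called, at both thresholds and at adjusted p alone, without 1 mouse.

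Averaged over regions, FLT-SAL against GC-SAL had 1 call with background subtraction (Tubb4a) and 0 to 1 without 1 mouse (1 without FLT-SAL mouse 1), and at adjusted p alone 2 in place of 4 genes with 1 mean per mouse, with Q3 or quantile-normalized values. FLT-BuOE against FLT-SAL had 2 genes at adjusted p alone with background subtraction and 3 with the replicate block. It had 0 with 1 mean of the Q3 values per mouse and 0 to 2 without 1 mouse. FLT-BuOE against GC-BuOE had 1 with the replicate block and 0 to 1 without 1 mouse.

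Between DG and CA, quantile normalization and background subtraction each called 2 genes in place of 1 and passed 7 in place of 4 at adjusted p alone, while a pseudocount of 5 called 0, and 0 to 1 were called without 1 mouse. Between FCT and CT, 0 genes passed at adjusted p alone when the mouse was not a block, and 3 with edgeR. Without 1 mouse, 0 to 1 passed (0 without GC-SAL mouse 2, GC-BuOE mouse 3 or FLT-SAL mouse 3). Between hippocampus and cortex, 3 genes were called with quantile normalization in place of 5 (Tuba1a and Cfl1 lost), 4 with a pseudocount of 5 and 4 to 5 without 1 mouse (Tuba1a lost).

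In FLT-SAL against GC-SAL, in the averaged FLT-BuOE against FLT-SAL and between regions, signs turned only for differences that passed no test in the fits reported above. With quantile normalization Tuba1a in CA was at -0.0021 and Tuba1b in DG at -0.065, and Tuba1b in FLT-BuOE against FLT-SAL was at 1.9e-05 averaged over regions, also with 1 mean per mouse. With edgeR Cfl1 in DG against CA was at 0.028 and Actb in FCT against CT at -0.0038, and with background subtraction the latter was at -0.014. Without 1 mouse, signs turned in FLT-SAL against GC-SAL for Pfn1 in CT (-0.21 to 0.10), Tuba1a in CA (-0.0077 to 0.22) and CT (-0.033 to 0.34) and Tuba1b in CT (-0.13 to 0.19), in the averaged FLT-BuOE against FLT-SAL for Tuba1b (-0.081 to 0.093), in DG against CA for Cfl1 (-0.061 to 0.011), Tubb3 (-0.098 to 0.0062) and Tubb4a (-0.11 to 0.0083) and in FCT against CT for Actb (-0.023 to 0.048). The cause was not tested for any of these. The replicate block changed no other call among the results listed here. In FLT-BuOE against FLT-SAL within a region, 24 of 792 alternative values, in 10 of 36 pairs, had the other sign. The largest difference that turned there was 0.285 in size. Signs also turned in 24 of 36 pairs in GC-BuOE against GC-SAL, in 20 in FLT-BuOE against GC-BuOE and in 8 for the interaction. With 3 mice a group, each group on its own slide, the SE of a difference in a single region was 0.12 to 0.20.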
